A study of Canis lupus familiaris with 15 samples.

Results

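Laminins and fibronectin are matrix proteins that cells secrete and stand on, and integrins are the paired alpha and beta receptor chains through which cells hold that matrix. In the mammary gland, laminins build the basement membrane under the epithelium, while fibronectin is a matrix protein of the stroma and of cells that are spreading or migrating. The integrin alpha-6 chain pairs with beta-1 or beta-4 to bind laminin, and the beta-5 chain pairs with alpha-V to bind vitronectin and other matrix proteins that carry the arginine-glycine-aspartate motif. Described here are 2 laminin chain genes (LAMA3 and LAMB1), the fibronectin gene (FN1) and 2 integrin chain genes (ITGA6 and ITGB5) in canine mammary tumour cell lines. They were chosen by gene symbol: 11 of the 22176 probes on the array carried 1 of these symbols, and they gave 5 of the 5246 genes that could be named. LAMA3 and ITGA6 were each read by 2 probes, LAMB1 and FN1 by 3 each, and ITGB5 by 1.

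The 3 lines were P114, from an anaplastic carcinoma of the mammary gland, CMT-U335, from an osteosarcoma that arose in the gland, and CMT-U229, whose source was a mixed tumour of benign type. All were grown in culture to near confluence with no treatment, and each tumour type was represented by 1 line, so a difference between lines is not a difference between tumour types. Each of 15 cDNA arrays carried 2 lines, 5 arrays for each of 3 pairs, with the dyes exchanged on some arrays of every pair, which asks directly how the transcripts of any 2 lines differ. P114 was in Cy5 on 3 of 5 arrays against CMT-U335 and on 2 of 5 against CMT-U229, and CMT-U229 was in Cy5 on 3 of 5 against CMT-U335. The series text gives dye swaps and at least 1 biological replicate in every pair, without saying how many arrays share an RNA. The p-values therefore measure the spread between arrays, part of which may be technical.

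Every value is a log2 ratio of the first named line over the second, turned by the dyes, and a gene's value is the mean of its probes on each array. The deposited table does not name the numerator or the log base. Cy5 over Cy3 and base 2 were read, so every direction below is likely and not settled, and with the other numerator every sign turns together. In this reading the epithelial genes KRT18 and EPCAM were higher in P114 than in CMT-U335, by 3.48 ± 0.19 and 3.55 ± 0.15 (SE, n = 5), and higher in CMT-U229 than in CMT-U335, by 0.79 ± 0.07 and 1.78 ± 0.14. Of the other 3 epithelial markers measured, KRT8 was also higher in P114 than in CMT-U335 (2.46 ± 0.20), TJP1, a tight junction protein, was lower (-0.35 ± 0.08, adjusted p = 0.0204), and MUC1 was -0.14 ± 0.08 without a call. In CMT-U229 against CMT-U335 KRT8 was higher too (2.56 ± 0.23). TJP1 and MUC1 lay below 0 there, at -0.33 ± 0.09 and -0.30 ± 0.09, without a call (adjusted p = 0.0524 and 0.0527). The 4 osteoblast markers measured were mixed in P114 against CMT-U335, the line from an osteosarcoma. SPP1 and SPARC were higher in P114 (4.12 ± 0.18 and 0.56 ± 0.17), COL1A2 was lower (-1.39 ± 0.14) and ALPL was not called (0.17 ± 0.11). A gene was called when limma's adjusted p, over all 5246 genes of a pair, was under 0.05. On that rule 22.3% of all genes were called for P114 against CMT-U335, 7.3% for P114 against CMT-U229 and 17.3% for CMT-U229 against CMT-U335. Of the 5 genes described here, 4, 2 and 3 were called in those pairs in that order. Split by direction, 3 were higher and 1 lower in P114 than in CMT-U335, where 7.89% of all genes were called higher and 14.4% lower. Against CMT-U229, 2 were higher in P114 and 0 lower (3.32% and 3.98% of all genes), and in CMT-U229 against CMT-U335 1 was higher and 2 were lower (8.77% and 8.58%). The 1 higher there was ITGA6, by the mean of 2 probes that did not read alike (1.82 and -0.05). Beside these tests, 32.5%, 18.4% and 28.7% of all genes had the same sign on all 5 arrays of the 3 pairs, which is the background for counts of arrays above or below 0. The median absolute log2 ratios of the 5 genes described here were 0.82, 0.83 and 0.89, and over all genes the medians were 0.15, 0.10 and 0.12. A cDNA ratio says nothing of how abundant a transcript was, so no gene's level is set against another's.

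LAMA3 encodes the alpha-3 chain of the laminin that anchors epithelial cells at hemidesmosomes, and it was higher in P114 than in either other line. Against CMT-U335 its log2 ratios on replicates 1 to 5 were 1.85, 2.54, 1.71, 0.77 and 1.05. All 5 arrays lay above 0, with replicates 4 and 5 the lowest. The mean was 1.58 ± 0.24 (SE, n = 5), a 3.00-fold difference with an adjusted p of 0.00325. Against CMT-U229 the ratios were 1.73, 3.38, 2.07, 1.79 and 3.39. Replicates 2 and 5 stood well above the other three, which lay close together. Their mean was 2.47 ± 0.29 (SE, n = 5), a 5.55-fold difference with an adjusted p of 0.00348.

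Between the other lines LAMA3 was lower in CMT-U229 than in CMT-U335. The ratios were -0.73, -0.89, -0.89, -1.79 and -1.71, with every array below 0 and replicates 4 and 5 the lowest. The mean was -1.20 ± 0.18 (SE, n = 5), 2.30-fold lower in CMT-U229 with an adjusted p of 0.00467. LAMA3 was thus called in all 3 pairs, as were 1.79% of all genes. Its probes, numbered 5634 and 12604 on the array, had the same sign on 15 of 15 arrays, and the median gap between them was 0.13. Probe 5634 gave means of 1.58, 2.56 and -1.10 for the 3 pairs in the order above. Probe 12604 gave 1.59, 2.39 and -1.31, and all 6 of these probe results were called over the 22176 probes, as were 10.3%, 3.4% and 8.23% of all probes in the 3 pairs. Without replicate 3 or without replicate 5 the call of probe 12604 between CMT-U229 and CMT-U335 was lost, at adjusted p of up to 0.0727. The gene's call for P114 against CMT-U229 was lost when arrays that looked like dye swaps of the same RNA were averaged first, at a ratio of 2.36 and an adjusted p of 0.0785, which was the highest over 16 alternatives. Among those alternatives the highest adjusted p was 0.0204 for P114 against CMT-U335 and 0.0434 for CMT-U229 against CMT-U335.

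LAMB1 encodes the beta-1 chain, which many laminins of the basement membrane share. It too was higher in P114 than in either other line, by less than LAMA3. Against CMT-U335 the ratios were 0.83, 1.20, 0.69, 0.80 and 0.58, a narrow spread with replicate 2 the highest. They averaged 0.82 ± 0.10 (SE, n = 5), a 1.76-fold difference with an adjusted p of 0.0014. Against CMT-U229 the ratios were 0.81, 1.33, 0.95, 0.75 and 1.39, and replicates 2 and 5 were again the highest. That mean was 1.05 ± 0.12 (SE, n = 5), a 2.07-fold difference with an adjusted p of 0.00289. Averaging the apparent dye swaps left 1.00 with an adjusted p of 0.0682, the highest of its 16 alternatives.

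Between CMT-U229 and CMT-U335 the LAMB1 arrays fell on either side of 0, at 0.16, -0.28, -0.06, -0.68 and -0.50. The mean of -0.27 ± 0.13 (SE, n = 5) did not pass the test (adjusted p = 0.222), and its 95% confidence interval ran from -0.57 to 0.03. The 3 probes of LAMB1 gave 0.77, 0.78 and 0.90 for P114 against CMT-U335 and 0.99, 1.11 and 1.03 for P114 against CMT-U229, each called. For CMT-U229 against CMT-U335 they gave -0.24, -0.30 and -0.28, none called. Probe 17029 was below 0 on 5 of 5 arrays in that last pair, from -0.39 to -0.13, while the other two crossed 0. Genes called higher in P114 in both of its pairs, as LAMA3 and LAMB1 were, made up 2.06% of all genes.

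**Figure D1:**
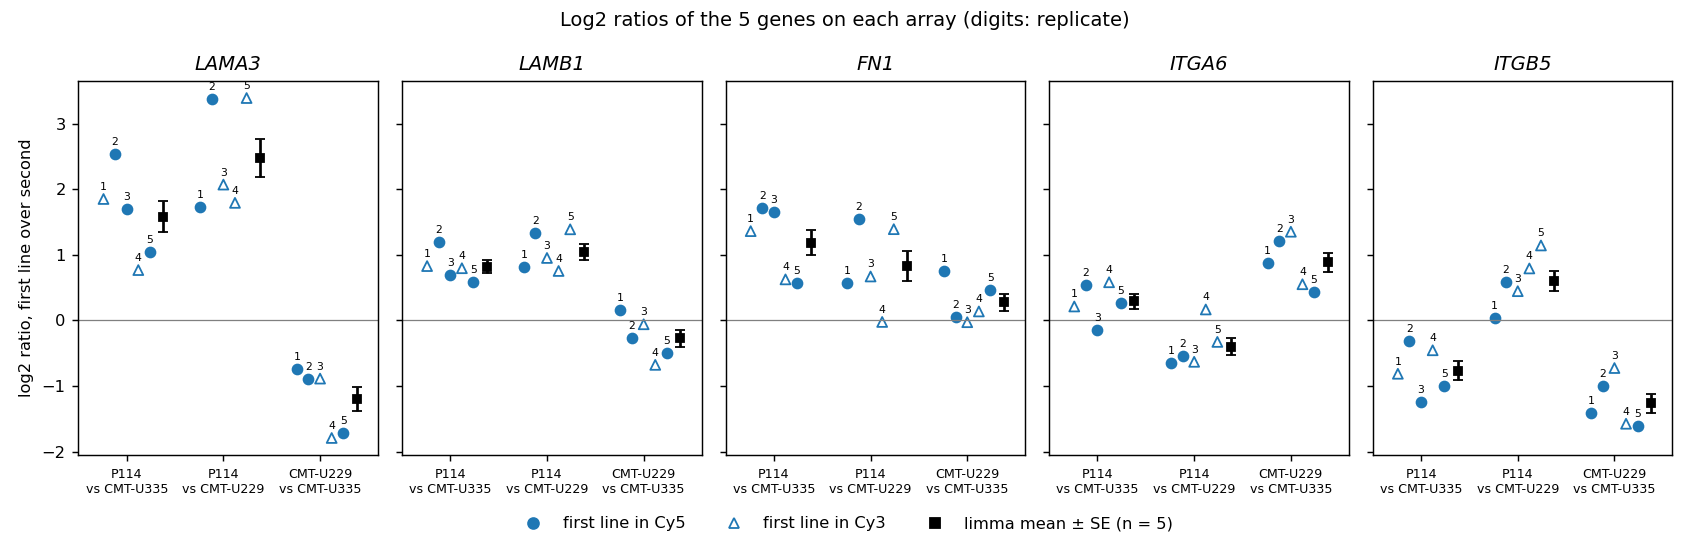
Log2 ratio of the first named line over the second for LAMA3, LAMB1, FN1, ITGA6 and ITGB5 on each array, with 1 point for each of 5 arrays of a pair, labelled by replicate and shaped by which dye the first line carried, and limma's mean ± SE as a square. LAMA3 lies above 0 on all 10 arrays that carried P114 and below 0 on the 5 others, whereas ITGB5 lies below 0 on all 10 arrays with CMT-U335 as the second line.

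FN1 encodes fibronectin, the ligand of the alpha-5 beta-1 integrin and of several alpha-V integrins. It was higher in P114 than in CMT-U335, with ratios of 1.36, 1.72, 1.65, 0.63 and 0.56. Replicates 4 and 5 were the lowest, as they were for LAMA3. The mean was 1.18 ± 0.19 (SE, n = 5), a 2.27-fold difference with an adjusted p of 0.00455, and over 16 alternatives the adjusted p reached at most 0.022.

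Against CMT-U229 the FN1 ratios were 0.57, 1.55, 0.67, -0.02 and 1.39. Replicates 2 and 5 were the highest, as for both laminin chains, and replicate 4 was at 0. The mean of 0.83 ± 0.23 (SE, n = 5) did not pass the test (adjusted p = 0.0772), and its interval was 0.30 to 1.36. Without replicate 4 the mean was 1.05 with an adjusted p of 0.0221, and over 16 alternatives the adjusted p ran from 0.00141 to 0.403, with 5 of them called. Between CMT-U229 and CMT-U335 the ratios were 0.76, 0.05, -0.03, 0.14 and 0.46, with 3 arrays near 0. Their mean was 0.28 ± 0.13 (SE, n = 5) with an adjusted p of 0.208 and an interval of -0.02 to 0.57.

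The 3 FN1 probes differed in size more than those of the laminin chains, with a median gap of 0.70 from the lowest to the highest probe of an array against 0.34 for LAMB1. For P114 against CMT-U335, probe 8557 read 1.22, 1.75, 1.85, 0.95 and 0.55, a mean of 1.26 ± 0.20 (SE, n = 5; adjusted p = 0.00966). Probe 9254 read 1.78, 2.53, 1.72, 0.67 and 1.07, a mean of 1.56 ± 0.25 (SE, n = 5; adjusted p = 0.0114). Probe 9053 read 1.08, 0.87, 1.39, 0.25 and 0.07, a mean of 0.74 ± 0.20 (SE, n = 5; adjusted p = 0.0723), so it was above 0 on every array and lower than probe 9254 on every array. Without replicate 5 this probe was called, at 0.90 with an adjusted p of 0.0476.

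Each probe was also set against the mean of its gene's other probes on the same array, a difference that was called for 7.28%, 1.6% and 5.78% of the 4067 probes of genes with more than 1 probe, in the 3 pairs in the order above. For FN1 probe 9053 this difference was -0.67 ± 0.14 (SE, n = 5) in P114 against CMT-U335, with an adjusted p of 0.0354. The call was lost without replicate 1, 3, 4 or 5, in a fit with a dye term and with the apparent dye swaps averaged, and over 7 alternatives the adjusted p ran from 0.0472 to 0.112. In P114 against CMT-U229 the difference was -0.65 ± 0.26 (SE, n = 5; adjusted p = 0.367), and without replicate 4 it was -0.96 with an adjusted p of 0.0371. In CMT-U229 against CMT-U335 it was -0.08 ± 0.10 (SE, n = 5; adjusted p = 0.733). No LAMA3 or LAMB1 probe was called against its gene's other probes in any pair.

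ITGA6 encodes the alpha-6 integrin chain, a laminin receptor of the basal surface of epithelial cells, and its 2 probes did not read alike. Probe 9344 was above 0 on all 5 arrays of P114 against CMT-U335, at 0.98, 1.31, 0.54, 1.51 and 1.43. Probe 17143 was below 0 on the same 5 arrays, at -0.55, -0.23, -0.82, -0.35 and -0.89. The means were 1.16 ± 0.15 (SE, n = 5; adjusted p = 0.00498) and -0.57 ± 0.12 (SE, n = 5; adjusted p = 0.0281), both called and of opposite sign. The higher reading kept its call in each of 8 alternatives, up to an adjusted p of 0.0307. The lower one was called in 2 of 8, with adjusted p from 0.028 to 0.0973, and lost its call without replicate 1, 3, 4 or 5, with a dye term and with the apparent dye swaps averaged.

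The same probes also parted between CMT-U229 and CMT-U335. Probe 9344 read 1.59, 2.34, 2.45, 1.41 and 1.32, with replicates 2 and 3 highest and every array well above 0. Its mean was 1.82 ± 0.20 (SE, n = 5), a 3.54-fold difference with an adjusted p of 0.00385; with the apparent dye swaps averaged it was 1.79 with an adjusted p of 0.0538, the highest of 8 alternatives. Probe 17143 read 0.17, 0.09, 0.26, -0.31 and -0.46, on either side of 0. Its mean was -0.05 ± 0.13 (SE, n = 5; adjusted p = 0.909), with an interval of -0.35 to 0.25.

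Between P114 and CMT-U229, in contrast, the probes lay together. Probe 9344 read -0.69, -0.69, -0.38, 0.10 and -0.34, a mean of -0.40 ± 0.13 (SE, n = 5; adjusted p = 0.225). Probe 17143 read -0.61, -0.40, -0.88, 0.23 and -0.31, a mean of -0.39 ± 0.16 (SE, n = 5; adjusted p = 0.367). Replicate 4 was the only array above 0 for either probe.

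The difference between the ITGA6 probes was therefore large in the pairs that held CMT-U335 and near 0 in the pair that did not. Probe 9344 minus probe 17143 was 1.72 ± 0.15 (SE, n = 5) for P114 against CMT-U335, from 1.37 to 2.32 on single arrays, with an adjusted p of 0.00166. It was 1.87 ± 0.13 (SE, n = 5) for CMT-U229 against CMT-U335, from 1.42 to 2.25, with an adjusted p of 0.00219. For P114 against CMT-U229 it was -0.01 ± 0.12 (SE, n = 5), with an interval of -0.30 to 0.28 and an adjusted p of 0.988. Both calls held in each of 7 alternatives, at adjusted p of up to 0.0217 and 0.047. Over the loop of 3 pairs neither probe was called for a failure to close, and 0 of all 22176 probes were. For genes this test called too rarely for 0 calls to show that loops close, as given below. No conclusion is therefore drawn from it here. For probe 9344 the direct ratio of P114 over CMT-U335 was 1.16 and the sum through CMT-U229 was 1.42, a difference of -0.27 ± 0.31 (SE; interval -0.93 to 0.39). For probe 17143 these were -0.57 and -0.44, a difference of -0.12 ± 0.25 (SE). Which stretch of the transcript either probe holds was not determined here, and ITGA6 is the 1 gene of the 5 whose symbol rests on the platform annotation alone.

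A mean over unlike probes hides this pattern. The mean of both ITGA6 probes was 0.21, 0.54, -0.14, 0.58 and 0.27 for P114 against CMT-U335, in all 0.29 ± 0.12 (SE, n = 5), which did not pass the test (adjusted p = 0.121). Without replicate 3 it was called with an adjusted p of 0.0432, and over 16 alternatives the adjusted p ran from 0.0252 to 0.299. For P114 against CMT-U229 it was -0.65, -0.55, -0.63, 0.17 and -0.33, in all -0.40 ± 0.13 (SE, n = 5; adjusted p = 0.142). Without replicate 4 that became -0.54 with an adjusted p of 0.0219, in a range of 0.00864 to 0.546 over 16 alternatives. For CMT-U229 against CMT-U335 the gene mean was 0.88, 1.22, 1.35, 0.55 and 0.43, in all 0.89 ± 0.15 (SE, n = 5; adjusted p = 0.00723), a call that probe 9344 carried. The median gap between the ITGA6 probes over 15 arrays was 1.52, and they had the same sign on 8 of them.

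**Figure D2:**
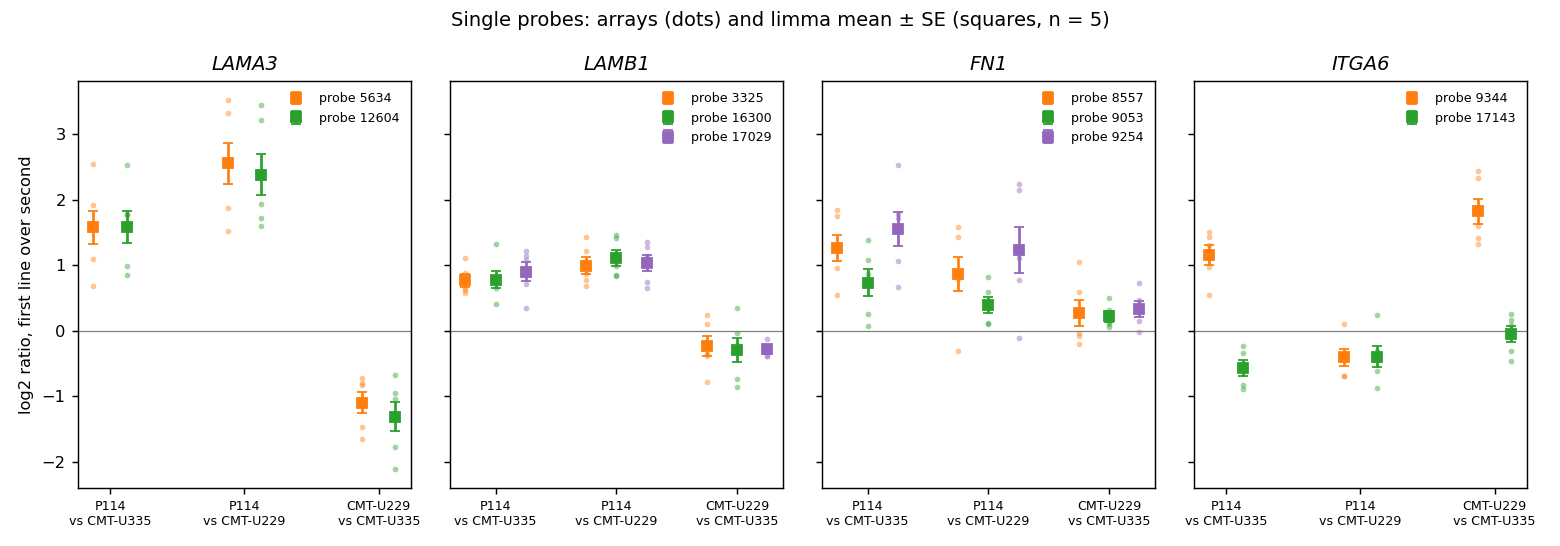
Log2 ratios of the single probes of LAMA3, LAMB1, FN1 and ITGA6 in each pair, with 5 arrays as dots and limma's mean ± SE as a square, the probes of a gene side by side. The LAMA3 and LAMB1 probes lie together, FN1 probe 9053 is nearer to 0 than the other FN1 probes in P114 against CMT-U335, and the ITGA6 probes part at 1.16 and -0.57 in that pair and at 1.82 and -0.05 in CMT-U229 against CMT-U335.

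ITGB5 encodes the beta-5 chain of a vitronectin receptor, and it was highest in CMT-U335. For P114 against CMT-U335 its single probe read -0.81, -0.31, -1.25, -0.45 and -0.99, with all arrays below 0 and replicate 3 the lowest. The mean was -0.76 ± 0.14 (SE, n = 5), 1.70-fold lower in P114 with an adjusted p of 0.00783. For CMT-U229 against CMT-U335 it read -1.41, -1.0, -0.73, -1.58 and -1.60, again all below 0. That mean was -1.26 ± 0.14 (SE, n = 5), 2.40-fold lower in CMT-U229 with an adjusted p of 0.00146. Over 16 alternatives the adjusted p reached at most 0.0374 in the first pair and 0.0165 in the second. Judged among the 22176 single probes instead of the genes, the first of these calls was lost without replicate 1, 3 or 5, at adjusted p of up to 0.0688.

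For P114 against CMT-U229 the ITGB5 probe read 0.03, 0.58, 0.45, 0.79 and 1.14, none below 0 and replicate 1 close to it. The mean of 0.60 ± 0.15 (SE, n = 5) did not pass the test (adjusted p = 0.0643), with an interval of 0.24 to 0.96. Without replicate 1 it was 0.74 with an adjusted p of 0.0411, and over 16 alternatives the adjusted p ran from 0.00428 to 0.171, with 4 of them called.

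Some arrays were high or low for several of these genes together. In P114 against CMT-U229, replicates 2 and 5 held the highest ratios of LAMA3, LAMB1 and FN1, and the arrays of replicates 2 and 5 had opposite dyes. In P114 against CMT-U335, replicates 4 and 5 were the lowest for LAMA3 and FN1. Replicates 4 and 5 of CMT-U229 against CMT-U335 gave the lowest values of LAMA3, LAMB1, ITGA6 and ITGB5. Each of these couples of arrays is among the apparent dye swaps that were averaged as an alternative. Their likeness is thus not that of arrays known to be independent, and whether they share an RNA was not tested. Dye effects of the 5 genes, as Cy5 over Cy3, were between -0.24 and 0.23, and none was called in any pair. Each gene's dye effect kept its sign over the 3 pairs, above 0 for LAMA3, LAMB1 and FN1 and below 0 for ITGA6 and ITGB5. The tests were run pair by pair, so this recurrence was not tested. Over all 5246 genes limma called 0 dye effects, with 436, 393 and 474 genes at an unadjusted p under 0.05 in the 3 pairs. Each of these counts is above the share of 0.05 expected without dye effects, so 0 calls do not show that dye effects were absent.

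Fitting all 15 arrays as a loop put each gene's 3 lines on 1 scale, relative to their mean. These positions come from the same arrays and describe the order of the lines. LAMA3 stood at 1.35 in P114, -0.13 in CMT-U335 and -1.23 in CMT-U229 (SE 0.13 each), and each neighbour differed from the next. LAMB1 stood at 0.62 in P114, -0.18 in CMT-U335 and -0.44 in CMT-U229 (SE 0.06), and the difference of -0.26 between the last 2 lines had an interval of -0.46 to -0.05 but missed the threshold after adjustment (adjusted p = 0.0622). FN1 stood at 0.67 in P114, -0.19 in CMT-U229 and -0.49 in CMT-U335 (SE 0.10), and the lower 2 lines did not differ beyond their spread (0.30, interval -0.06 to 0.66, adjusted p = 0.224).

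The receptors had other orders. ITGB5 stood at 0.68 in CMT-U335, -0.06 in P114 and -0.62 in CMT-U229 (SE 0.07). ITGA6 probe 9344 stood at 0.74 in CMT-U229, 0.25 in P114 and -0.99 in CMT-U335 (SE 0.08), and probe 17143 at 0.21, 0.11 and -0.32 in CMT-U335, CMT-U229 and P114 (SE 0.07). For the latter, CMT-U335 and CMT-U229 did not differ beyond their spread (-0.09, adjusted p = 0.731). Direct ratios and the sums through the other line differed by 0.31 ± 0.49 for LAMA3, 0.04 ± 0.21 for LAMB1, 0.08 ± 0.37 for FN1, -0.19 ± 0.25 for ITGA6 and -0.10 ± 0.28 for ITGB5 (SE), none of which was called. Over all 5246 genes limma called 0 such differences, with 17 at an unadjusted p under 0.05. That is far below the share of 0.05 expected of a well calibrated test. The test thus called too rarely for 0 calls to show that the loops close, and the cause was not tested.

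**Figure D3:**
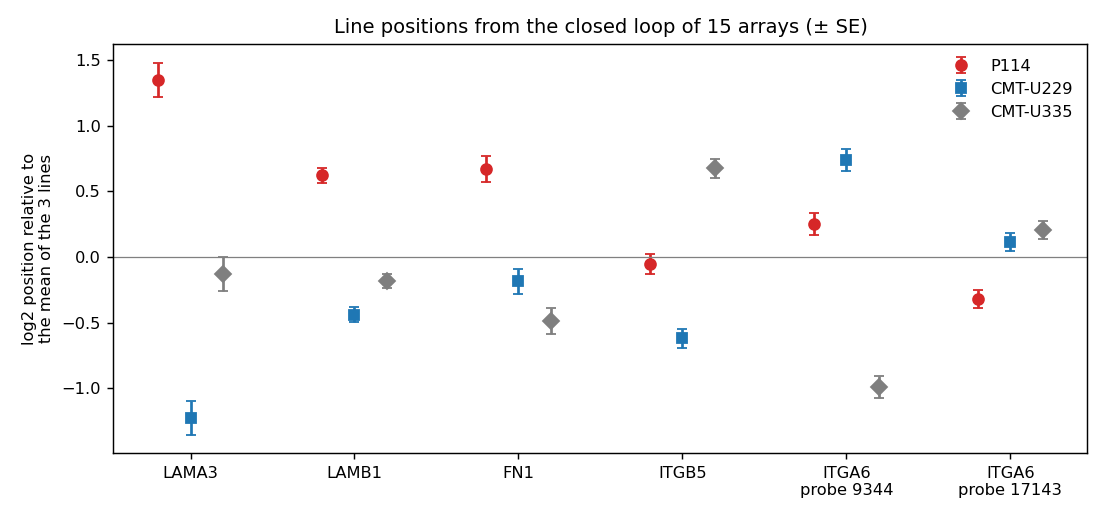
Position of each line relative to the mean of the 3 lines on the log2 scale, from a loop fit over 15 arrays (± SE), for LAMA3, LAMB1, FN1, ITGB5 and the 2 ITGA6 probes. P114 is the highest line for LAMA3, LAMB1 and FN1, CMT-U335 for ITGB5 and CMT-U229 for ITGA6 probe 9344, while probe 17143 sets P114 lowest at -0.32.

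Other genes of the same matrix and receptors were listed by their roles, 181 beside the 5, of which 62 were measured. Called were 19 in P114 against CMT-U335, 10 in P114 against CMT-U229 and 18 in CMT-U229 against CMT-U335, out of 62 each time, where 22.3%, 7.3% and 17.3% of all genes were called. Leaving out single arrays cost some of these their call: 6, 5 and 5 in the 3 pairs lost it without at least 1 array, and where such a gene is given below the arrays are named. With the apparent dye swaps averaged 1 other pathway gene, CAV1, was called in P114 against CMT-U229.

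Among 14 measured laminin chains and basement membrane genes, LAMA3 and LAMB1 included, 3 were higher and 3 lower in P114 than in CMT-U335. In P114 against CMT-U229 4 were higher and 1 lower, and in CMT-U229 against CMT-U335 4 were higher and 3 lower. The medians of the list were 0.04, 0.04 and -0.01, close to those of all genes at -0.02, -0.01 and -0.01. The other 4 laminin chains measured were not called in either pair with P114. LAMB2, the beta-2 chain, was higher in CMT-U229 than in CMT-U335 by 0.63 ± 0.08 (adjusted p = 0.00293) and was not called elsewhere. In P114 against CMT-U229 it was -0.47 ± 0.11 (adjusted p = 0.0527), from -0.93 to -0.21 on single arrays. Its sign there was opposite to that of LAMA3 and LAMB1. In P114 against CMT-U335 it was -0.08 ± 0.11. LAMC1, the gamma-1 chain found with LAMB1 in many laminins, was 0.14 ± 0.10, 0.00 ± 0.08 and 0.38 ± 0.10 in the 3 pairs. The last was called at an adjusted p of 0.0437 and was lost without replicate 2, 3, 4 or 5. LAMA1 and LAMA4 lay between -0.01 and 0.22 and were not called in any pair.

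COL4A1 and COL4A2 encode the chains of the collagen network of basement membranes, and their ratios lay in the order of ITGB5 rather than of the laminins. COL4A1 was -0.79 ± 0.10, 0.69 ± 0.13 and -1.43 ± 0.16 in the 3 pairs, and COL4A2 was -0.87 ± 0.12, 1.03 ± 0.18 and -1.98 ± 0.09, each called (adjusted p of at most 0.0242). For P114 against CMT-U229 both lost their call without replicate 2 or 3, and COL4A1 also without replicate 5, at adjusted p of up to 0.0827 for COL4A1 and 0.0619 for COL4A2. EFEMP1, a fibulin, was -0.63 ± 0.15, -1.71 ± 0.17 and 0.95 ± 0.22, which sets CMT-U229 highest and P114 lowest, the reverse of the order of LAMA3. Its call was lost without replicate 1 or 3 in P114 against CMT-U335 and without replicate 1, 2 or 3 in CMT-U229 against CMT-U335, and it was kept whichever array was left out in P114 against CMT-U229. SMOC1, a basement membrane glycoprotein, was 0.39 ± 0.08 in P114 against CMT-U335 and 0.39 ± 0.10 in CMT-U229 against CMT-U335, the latter lost without replicate 2, 3, 4 or 5.

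Among 11 measured genes of fibronectin, its matrix partners and other integrin-binding glycoproteins, 4 were higher and 2 lower in P114 than in CMT-U335, 3 were higher and 0 lower in P114 than in CMT-U229, and 1 was higher and 2 lower in CMT-U229 than in CMT-U335. The medians were 0.09, 0.65 and -0.06. SPP1, the integrin ligand osteopontin, was 4.12 ± 0.18 for P114 against CMT-U335 (adjusted p = 2.47e-05) and 2.58 ± 0.34 for CMT-U229 against CMT-U335 (adjusted p = 0.0026). TGM2, a transglutaminase that cross-links fibronectin, was 1.46 ± 0.15 for P114 against CMT-U335 (adjusted p = 0.000612). In P114 against CMT-U229 those same genes stood at 2.03 ± 0.55 and 1.31 ± 0.32, neither called (adjusted p = 0.0795 and 0.0558).

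CCN1, a secreted ligand of alpha-V and alpha-6 integrins, had the order of ITGB5, with -1.14 ± 0.22, 1.29 ± 0.21 and -2.33 ± 0.20, each called. FBLN2, a fibronectin-binding fibulin, was -0.84 ± 0.14 in P114 against CMT-U335 and -1.47 ± 0.14 in CMT-U229 against CMT-U335, both called. SPARC, a collagen-binding matrix protein, was higher in P114 than in CMT-U229 by 1.33 ± 0.21 (adjusted p = 0.0116). FBN1, the fibrillin of microfibrils, was higher there by 0.65 ± 0.13 (adjusted p = 0.0247), a call lost without replicate 2, 3 or 5. VTN, which encodes vitronectin, the ligand of the beta-5 integrin, was -0.01 in each pair and was not called.

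Of 11 measured integrin chains, ITGA6 and ITGB5 included, 1 was higher and 1 lower in P114 than in CMT-U335, 0 were called in P114 against CMT-U229, and 2 were higher and 1 lower in CMT-U229 than in CMT-U335. ITGA6 was counted as higher in that last pair by the mean of its unlike probes. The medians were 0.06, 0.04 and 0.07. ITGAV, the alpha-V partner chain of beta-5, was 0.83 ± 0.10 in P114 against CMT-U335 (adjusted p = 0.00141) and 0.69 ± 0.10 in CMT-U229 against CMT-U335 (adjusted p = 0.00325). Its sign was thus opposite to that of ITGB5 in both pairs with CMT-U335, and in P114 against CMT-U229 it was 0.17 ± 0.19 (adjusted p = 0.764). ITGB1, a partner of alpha-6, was -0.10 ± 0.08, -0.02 ± 0.17 and -0.06 ± 0.15, not called in any pair. ITGA5, the alpha chain of the classical fibronectin receptor, was 0.01 ± 0.09, 0.36 ± 0.13 and -0.18 ± 0.20, likewise without a call. In P114 against CMT-U229, where limma called 0 of the 11, 3 had an unadjusted p under 0.05 and a SAM-type test called 1, ITGB5. The gene values of ITGB5 and ITGA6 were the nearest to limma's threshold (adjusted p = 0.0643 and 0.142).

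Among 10 measured non-integrin receptors and integrin partners in the membrane, 3 were higher and 0 lower in P114 than in CMT-U335, 1 was higher and 2 lower in P114 than in CMT-U229, and 4 were higher and 1 lower in CMT-U229 than in CMT-U335. CAV1, the main protein of caveolae, was 0.41 ± 0.09, 1.22 ± 0.07 and -0.72 ± 0.09, an order of the lines like that of LAMA3, although the first of these was lost without replicate 2, 3 or 4. DDR1, a collagen receptor, was 1.37 ± 0.07 in P114 against CMT-U335 (adjusted p = 4.54e-05). CD151, the tetraspanin that associates with the alpha-6 integrins, was 0.37 ± 0.08 in P114 against CMT-U335 and 0.43 ± 0.08 in CMT-U229 against CMT-U335, with the sign of ITGA6 probe 9344 in both. The first CD151 call was lost without replicate 3 or 4. Higher in CMT-U229 than in CMT-U335, each by more than CD151, were also CD81 (0.65 ± 0.11), DDR1 (0.57 ± 0.15) and CD47 (0.47 ± 0.07). The DDR1 call in that pair was lost without replicate 1, 2, 4 or 5. DAG1, which encodes the laminin receptor dystroglycan, was lower in P114 than in CMT-U229 by -0.44 ± 0.08, a call that was lost without replicate 1, 2, 3 or 5.

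The hemidesmosome list had 4 measured genes, with 2 higher and 1 lower, 1 and 1, and 2 and 1 in the 3 pairs, of which LAMA3, ITGA6 and CD151 are given above. In the last pair ITGA6 was counted as higher by the mean of its unlike probes. DST, a plakin that ties hemidesmosomes to keratin, was -0.86 ± 0.11 and -0.58 ± 0.08 in the pairs of P114 with CMT-U335 and CMT-U229 (adjusted p = 0.0018 and 0.0061). It was therefore lower in P114, the line in which LAMA3 was highest, and it was -0.18 ± 0.12 in CMT-U229 against CMT-U335 (adjusted p = 0.411). Of 20 measured genes of the adhesion complex inside the cell, 1 was higher and 4 lower in P114 than in CMT-U335, 0 were called by limma in P114 against CMT-U229 (5 at an unadjusted p under 0.05, and 1 by a SAM-type test), and 1 was higher and 2 lower in CMT-U229 than in CMT-U335. RAP1B, a small GTPase that activates integrins, was -1.45 ± 0.11, -0.05 ± 0.09 and -1.20 ± 0.11, called in both pairs with CMT-U335. The actin cross-linker FLNA was -0.48 ± 0.10 in each of the same pairs. TLN1 and PTK2, which encode talin and focal adhesion kinase, lay between -0.19 and 0.04 with no call.

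**Figure D4:**
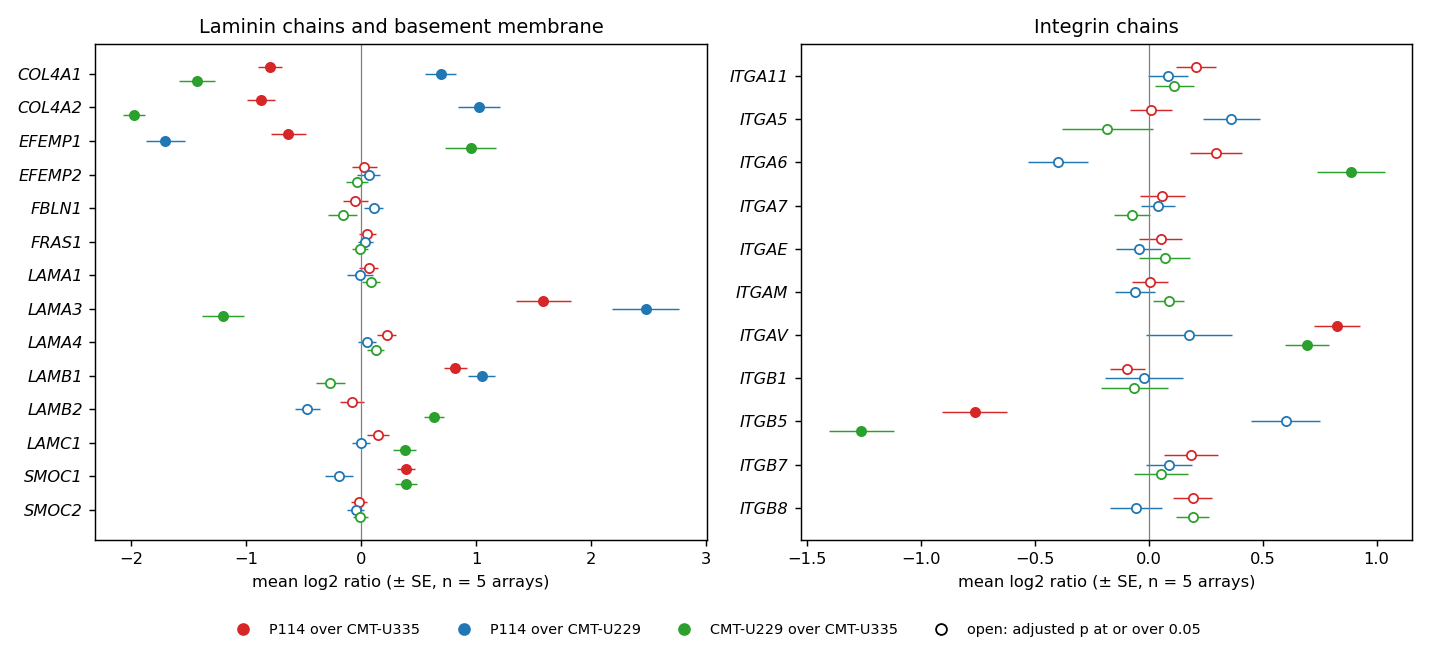
Mean log2 ratio ± SE (5 arrays) of the measured laminin chains and basement membrane genes and of the measured integrin chains in the 3 pairs, with filled points for called values and open points for the others. COL4A1 and COL4A2 follow the signs of ITGB5, ITGAV has the opposite sign to ITGB5 in both pairs with CMT-U335, and most other integrin chains lie near 0.

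Likeness of pattern was measured as the uncentred correlation of the 15 array values, over 5244 genes with all values, and is a description over arrays that share 3 lines. The genes most like LAMA3 were LAMB1 (0.97), IGFBP6 (0.96) and ARAP3 (0.96), and those most like LAMB1 were CRIP1 (0.97), IGFBP6 (0.97) and LAMA3 (0.97). FN1 was most like TAF2 (0.98), RGS2 (0.96) and IFI30 (0.96), and it ranked LAMB1 (0.83) above LAMA3 (0.76). ITGB5 was most like COL4A1 (0.97), CRTAP (0.97) and COL4A2 (0.96). The mean of both ITGA6 probes had looser likenesses, to RAB8A (0.92), PLA2G12A (0.91) and USO1 (0.91). Taken singly, which was chosen after the values were seen, probe 9344 was most like GRSF1 (0.97) and probe 17143 most like CLTC (0.93). ITGB5 and the mean of both ITGA6 probes ran opposite, at -0.67, and the likeness of each single probe to ITGB5 was not computed. In the loop fit CMT-U335 was the highest line for probe 17143 (0.21) and for ITGB5 (0.68). It was the lowest line for probe 9344 (-0.99).

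Markers of cell types moved with the lines too. Of 5 measured epithelial markers, 3 were higher and 1 lower in P114 than in CMT-U335, 2 were higher in P114 than in CMT-U229, and 3 were higher in CMT-U229 than in CMT-U335. Of 7 mesenchymal markers, 1 was higher and 3 lower in the first pair, 4 were higher in the second, and 5 were lower in the third. COL1A2, a fibrillar collagen chain, was -1.39 ± 0.14, 2.06 ± 0.30 and -3.39 ± 0.22, the sign order of ITGB5. Of 6 basal and myoepithelial markers, 2 were higher and 0 lower in the first pair, 2 and 1 in the second, and 1 and 2 in the third. LAMA3 itself was among those called in each pair, and CAV1 was called with the sign of LAMA3 in each. MYLK had the opposite sign to LAMA3 in both pairs in which it was called. It was -2.03 ± 0.10 in P114 against CMT-U229 and 2.22 ± 0.07 in CMT-U229 against CMT-U335. Of 4 osteoblast markers, 2 were higher and 1 lower in P114 than in CMT-U335, the line from an osteosarcoma, with SPP1 and SPARC higher (the latter lost without replicate 2, 3, 4 or 5), COL1A2 lower and ALPL, the bone alkaline phosphatase, at 0.17 ± 0.11 without a call. The part of these differences between the lines in the values of LAMA3, LAMB1, FN1, ITGA6 and ITGB5 was not tested. Limma and the SAM-type test called 0 of 4 endothelial markers in any pair, with 0 at an unadjusted p under 0.05, and of 6 leukocyte markers CD14 alone was called, higher in P114 in both of its pairs.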

How the data were processed

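Column-purified total RNA was amplified by T7 transcription, coupled to Cy3 or Cy5 and hybridised to cDNA arrays, per the labels' protocols. As the series' design text has it, the authors normalized and log transformed the data. The deposited ratios are read here as log2. How they normalized, the log base and the numerator are not stated in labels or file. Base 2 was read because the largest absolute value, 12.43, would exceed a scanner's range as a natural log. Array medians lay between -0.00671 and 0.0134. No depth is known, so precision rests on the number of arrays.

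Of 22176 probes, 7694 had 1 symbol, 0 several and 14482 none in the platform annotation, and 7340 symbols were updated through RefSeq (assembly UU_Cfam_GSD_1.0). The symbol of ITGA6 was kept from the platform. Arrays were turned by their dyes and probes averaged per gene. In R 4.3.3, limma 3.58.1 tested the mean ratio of each pair against 0 (two-sided, a value needed on at least 3 of 5 arrays, Benjamini-Hochberg over all genes, threshold 0.05), in place of the study's SAM. Single probes, and each probe against its gene's others, were fitted likewise. The scripts were tested on simulated data.

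The genes described, the lists and the tests were chosen with earlier results of these data known. By rule the genes to name were the 5 with every probe, KRT18 and EPCAM, and the 3 genes most like each of the 5. From each pathway list they were up to 3 called genes with the largest ratio in each direction of a pair. Not every gene that the rule marked is given, and ILK, RSU1 and PAK1 are among those left out. Other genes named, among them VTN, ITGB1, ITGA5, LAMC1, LAMA1, LAMA4, TLN1 and PTK2, and the alternatives for a probe against its gene's others and for the pathway counts, were chosen after the values were seen.

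Alternatives were array medians at 0, scale normalization, a dye term, stricter and looser filters, 1 fit or a loop fit to all 15 arrays, blocks by replicate number, a SAM-type test, the median of probes, single probes, another threshold, the turned direction, each array left out, and apparent dye swaps averaged. The swaps are couples of arrays with opposite dyes that lay closest over genes of high spread. They were replicates 1 and 3 with 4 and 5, then 1 and 3 with 2 and 5, and 2 and 3 with 4 and 5 in the 3 pairs, and no label gives them. The median share of a gene's spread that lay within the couples was 0.43, 0.06 and 0.18 in the 3 pairs. For the next best split it was 0.50, 0.37 and 0.40. In P114 against CMT-U335 the couples thus hardly stood out, and calls kept there with averaged swaps rest on an uncertain grouping. Whether replicate numbers pair arrays was not settled: 3 of 15 correlations of deviations were over 0.1. Between P114 against CMT-U229 and CMT-U229 against CMT-U335, a shared CMT-U229 RNA would give a negative correlation, which that count cannot show. Those correlations were 0.12, -0.01, 0.06, -0.02 and -0.24 for replicates 1 to 5. In the other combinations a shared RNA would give a positive correlation. Between the 2 pairs with CMT-U335 they were -0.23, 0.05, -0.19, -0.02 and -0.11. Between the 2 pairs with P114 they were -0.17, 0.23, -0.01, 0.10 and 0.10. Of the 15 arrays, 1 had its highest correlation with an array of its own number. RNA sequences, genome positions and intensities were not used here.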

Additional observations from a re-analysis of the deposited data

How the results depend on the processing

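Of the 15 gene results, all kept their direction under every alternative except single probes and the turned reading. Results called in P114 against CMT-U335 and in CMT-U229 against CMT-U335 also kept their call, apart from 2 single probes, FN1 probe 9053 in the former (0.74) and ITGA6 probe 17143 in the latter. For ITGA6 in P114 against CMT-U335, probe 9344 by itself passed the test (1.16) and probe 17143 turned the sign (-0.57), and in CMT-U229 against CMT-U335 probe 17143 turned it as well and ended the call (-0.050, adjusted p = 0.909). The loop fit called ITGA6 in P114 against CMT-U335 (0.36) and in P114 against CMT-U229 (-0.46). In P114 against CMT-U229, averaged swaps ended the calls of LAMA3 (2.36) and LAMB1 (1.00). FN1 was called there with all 15 arrays, a SAM-type test or the replicate block (0.83) and in the loop fit (0.86), and ITGB5 with all 15 arrays or a SAM-type test (0.60) and in the loop fit (0.57). The replicate block changed no other call of the 5 genes. Of the 5 genes, those called in that pair numbered 4 with all 15 arrays, 5 in the loop fit, 4 with a SAM-type test and 0 with averaged swaps. Read as Cy3 over Cy5, 1 would be higher and 3 lower in P114 than in CMT-U335, 0 and 2 in P114 than in CMT-U229, and 2 and 1 in CMT-U229 than in CMT-U335.

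Of all genes, the loop fit called 1757, 1056 and 1445 and an adjusted p under 0.01 called 642, 159 and 470 in the 3 pairs, against 1169, 383 and 910. For P114 against CMT-U229 the fit over all 15 arrays called 650 and averaged swaps 79, and for CMT-U229 against CMT-U335 averaged swaps called 410. The difference of FN1 probe 9053 from the others in P114 against CMT-U335 was -0.64 with a dye term and -0.77 with averaged swaps, neither called. Other pathway genes called in P114 against CMT-U229 numbered 18 with all 15 arrays, 19 in the loop fit and 1 with averaged swaps, against 10, and 11 against 18 in CMT-U229 against CMT-U335 with averaged swaps. Averaging leaves 3 values a pair, and in P114 against CMT-U335 the couples averaged were poorly resolved. The cause of the other changes was not tested.

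With each array left out in turn, 202 to 408 genes were called for P114 against CMT-U229, and 571 to 863 for CMT-U229 against CMT-U335. Of the 5 genes, 2 to 4 were called in the former, and of other pathway genes 5 to 13. In that pair FN1 ran from 0.65 to 1.05, ITGA6 from -0.54 to -0.33 and ITGB5 from 0.46 to 0.74, and in P114 against CMT-U335 ITGA6 ran from 0.22 to 0.40. The difference of FN1 probe 9053 ran from -0.75 to -0.53 between P114 and CMT-U335 and from -0.96 to -0.52 between P114 and CMT-U229.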
